A study of Mus musculus with 12 samples.

Results

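The genes described here are 40 that encode proteins of the synaptic vesicle, of its release machinery and of the presynaptic active zone. They were taken as every peak whose deposited gene symbol is one of the 40, among 11356 gene symbols in all lists. These members carried 3913 of 246180 peaks in the largest list. All 40 had at least 1 peak there, 20 had one in a second forebrain list, 11 in a list from excitatory neurons and 0 in a control list.

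At a presynaptic terminal, neurotransmitter is packed into vesicles by transporters, and the vesicles are held in clusters by synapsins. Active zone scaffolds and priming factors bring vesicles to the release site, where SNARE proteins join the vesicle to the plasma membrane and synaptotagmins trigger fusion when calcium enters. The membrane is then retrieved by endocytosis. MicroRNAs (miRNAs) guide Argonaute proteins to target RNAs, mostly through the seed, the bases near the 5′ end of the miRNA, and so lower the stability or translation of the target. Several neuronal miRNAs are known regulators of the release machinery.

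The small RNAs that carry the results below are shown first, because the shared seed decides which of them can pair with the same bases of a target. Of 31 small RNA names taken from the results, 26 were matched to mature sequences of RefSeq (GRCm38.p6), and not all of the 26 are shown. Some names used below, such as miR-541-5p and miR-9-3p, were not among the 31. The name miR-124-3p, which leads the 3 lists with member peaks, is given by name only, as are miR-30b-5p, miR-129-1-3p, miR-328-3p and miR-485-5p. Each sequence is written 5′ to 3′, and the capitals mark the seed, bases 2 to 8.
miR-9-5p: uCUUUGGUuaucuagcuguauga
miR-26a-5p: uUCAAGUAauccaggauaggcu
miR-128-3p: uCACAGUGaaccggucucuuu
miR-125b-5p: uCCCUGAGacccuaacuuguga
miR-138-5p: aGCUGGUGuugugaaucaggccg
miR-29a-3p: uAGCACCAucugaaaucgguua
miR-29b-3p: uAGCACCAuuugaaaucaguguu
let-7a-5p: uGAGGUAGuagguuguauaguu
let-7c-5p: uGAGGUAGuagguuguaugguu
let-7f-5p: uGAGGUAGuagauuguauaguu
miR-30c-5p: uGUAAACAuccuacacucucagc
miR-30e-5p: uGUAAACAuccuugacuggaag
miR-135a-5p: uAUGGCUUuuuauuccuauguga
miR-137-3p: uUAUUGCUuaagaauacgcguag
miR-153-3p: uUGCAUAGucacaaaagugauc
miR-127-3p: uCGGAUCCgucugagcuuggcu
miR-132-3p: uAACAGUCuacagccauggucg
miR-218-5p: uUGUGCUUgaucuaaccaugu
miR-103-3p: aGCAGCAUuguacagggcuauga
The pair miR-29a-3p and miR-29b-3p share 1 seed, as do the 3 let-7 RNAs and the pair miR-30c-5p and miR-30e-5p. All other sequences shown have a seed of their own.

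The study joined small RNAs to the RNAs they bind within Ago complexes of C57BL/6 mouse forebrain and sequenced the chimeric molecules (CIMERA-seq), so that a read names both partners. Anti-Ago2 precipitated the complexes of whole forebrain (7 libraries), anti-myc those of a tagged Ago2 in excitatory neurons (3 libraries), and an IgG1 antibody served as the negative control (2 libraries). Tagged Ago2 came from a cross of a Camk2a-Cre/ERT2 transgenic line, whose promoter is active in excitatory forebrain neurons, with a line carrying a conditional GFP/Eif2c2 transgene at Gt(ROSA)26Sor. Mice received 2 mg tamoxifen on 5 days and were harvested 14 to 21 days later at an age of 10 to 12 weeks. Since the labels give this treatment under all 12 libraries, they leave unsaid whether mice of the anti-Ago2 and IgG libraries had the transgenes. The authors called peaks on pooled libraries with at least 3 reads from at least 2 libraries, which gave 4 lists, named here reps 1-4 and reps 5-7 after the anti-Ago2 replicates pooled in them, excitatory and IgG. A list is 1 pooled observation with no spread between replicates, and antibody, tag and cell type cannot be told apart in the excitatory list. In such bulk tissue, fewer cells of a type and less RNA per cell cannot be told apart either.

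The lists differed greatly in size. The reps 1-4 list held 246180 peaks, reps 5-7 held 3611, the excitatory list 766 and IgG 10, from libraries read at a stated 61 to 138 reads each in units of 1e6. The presynaptic genes carried 3913 peaks in reps 1-4, which was 1.59% of the list (Wilson 95% interval 1.54 to 1.64%). They carried 70 peaks in reps 5-7 (1.94%, 1.54 to 2.44%) and 16 in the excitatory list (2.09%, 1.29 to 3.37%). None of the 10 IgG peaks lay on a member, which allows a share of up to 30%. Intervals and limits here cover counting error only, since PCR reads without molecular identifiers are not independent molecules. Peaks that overlap or lie on the same gene are not independent either, so the intervals are too narrow where peaks cluster. Among peaks in coding sequence (CDS) and untranslated regions (UTRs), called exonic here, the share was 1.58% in reps 1-4 (1.51 to 1.66%), 2.56% in reps 5-7 (2.00 to 3.27%) and 2.58% in the excitatory list (1.57 to 4.21%). The exonic share of reps 5-7 thus lay above that of reps 1-4 beyond the counting intervals, which do not cover clustering. Of its 61 exonic member peaks, 13 lay on Syt1 and 8 on Bsn. The exonic share of the excitatory list had an interval reaching down to the reps 1-4 value. The order of the lists turned with scores summed in place of counted peaks, where the members' share was 1.31% in reps 1-4, 1.07% in reps 5-7 and 1.00% in the excitatory list.

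Of marker lists for 6 cell types with 8 genes each, astrocyte genes held 0.850% of exonic peaks in reps 1-4, 1.72% in reps 5-7 and 0 of 582 in the excitatory list, which allows up to 0.515%. Excitatory neuron genes held 0.570%, 1.01% and 2.23%. In the excitatory list those were the 13 peaks of Camk2a, and the other 7 genes of that list, among them the member Slc17a7, were at 0. All 8 inhibitory neuron, microglia and vascular markers were at 0 there, and the oligodendrocyte lineage had 4 peaks, all on 1 of its 8 genes. What part the cell make-up has in the values below was not tested.

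Members carried many peaks each. The median member had 52.5 peaks in reps 1-4, against 5 over all genes of that list, and 28.5 exonic peaks, against 5 over all genes with an exonic peak. The median RefSeq gene length was 88179 bases for the members and 29667 bases for the 10294 list genes that could be matched. Exonic counts were not scaled by transcript length. Of the 40 members, 50% were also in the reps 5-7 list and 27.5% in the excitatory list, against 12.9% and 4.04% of the 11352 genes in reps 1-4. Genes were not matched for their number of reps 1-4 peaks, so these shares do not account for it. Of 54 other presynaptic genes that are no members, 15 had a peak in reps 5-7 and 4 in the excitatory list.

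**Figure D1:**
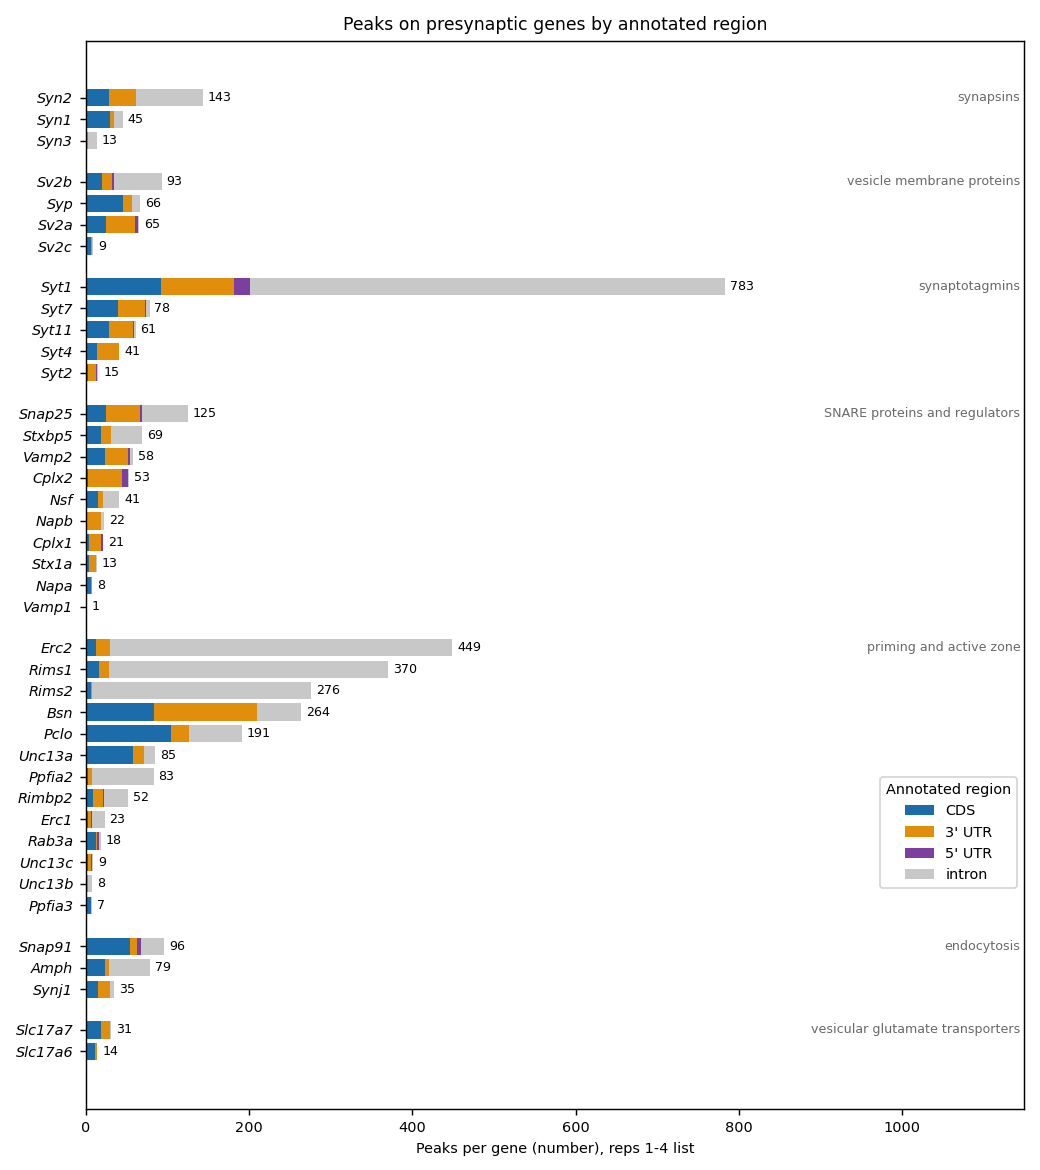
Number of reps 1-4 peaks on each of the 40 genes (horizontal axis), grouped by role and coloured by the region in which the authors annotated the peak; the number at the end of a bar is its total. Totals run from 1 (Vamp1) to 783 (Syt1), and the long grey bars of Syt1, Erc2, Rims1 and Rims2 are intron peaks.

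Synaptotagmins, the calcium sensors of the vesicle and their relatives, held 978 member peaks in reps 1-4 (24.99%), 23 of 70 in reps 5-7 and 3 of 16 in the excitatory list. Syt1, the sensor for fast release, had 783 peaks in reps 1-4, 15 in reps 5-7 and 1 in the excitatory list, where the 15 were the most of any member. Its reps 1-4 peaks were 582 in introns, 92 in CDS, 90 in the 3′ UTR and 19 in the 5′ UTR, and they named 80 small RNAs. The 2 highest scores of all member peaks were both miR-124-3p on 1 coding exon of Syt1 (mm10 chr10:108642215-108642398, minus strand), at 444 (chr10:108642379-108642381) and 441 (chr10:108642392-108642398). The score is the authors' own whole number, with no definition given in the sources used here. It is not scaled to library size, so it ranks peaks within a list only. In reps 5-7 the highest-scoring member peak, at 27, was also miR-124-3p on that exon, at chr10:108642375. It did not overlap the reps 1-4 peaks but lay within 20 bases of both. On the same exon, 14 reps 1-4 peaks of 13 small RNAs were joined, each overlapping another, into a site at chr10:108642365-108642398. The peaks of such a site do not all share bases, and the 2 highest-scoring ones here did not overlap.

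The member peak of rank 4, again Syt1 and miR-124-3p with a score of 348, was annotated as intron but consisted of the single base chr10:108690884. That is the base of a 48486-base intron (chr10:108642399-108690884) with the highest coordinate, and the peak scoring 441 ends right before the intron's lowest base. In reps 5-7 a miR-124-3p peak of score 13 covered chr10:108690884-108690885 and was annotated as CDS. Both peaks thus include the base chr10:108690884. The 3′ UTR of Syt1 carried a miR-124-3p peak found in all 3 lists, with scores of 132 in reps 1-4, 10 in reps 5-7 and 5 in the excitatory list (chr10:108497916-108497938 in the excitatory list).

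Syt7, a slow calcium sensor, had 78 peaks in reps 1-4 and 1 in each smaller list. That 1 peak was miR-124-3p in CDS at chr19:10413378-10413396, and it had the highest member score of the excitatory list. Its scores were 318 in reps 1-4, 19 in reps 5-7 and 16 in the excitatory list, which ranked it 370 of 246180, 194 of 3611 and 32 of 766 by score. Syt11 had 61, 5 and 1 peaks in the 3 lists, and its excitatory peak was miR-29a-3p in CDS (scores 56, 3 and 3 in the order reps 1-4, reps 5-7, excitatory). Syt4 had 41, 2 and 0 peaks. Its highest was a 3′ UTR peak of miR-129-2-3p with a score of 171 in reps 1-4 and 4 in reps 5-7. Syt2 had 15 peaks, all in reps 1-4.

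Among vesicle membrane proteins, Syp, which encodes the abundant vesicle protein synaptophysin, had 66 peaks in reps 1-4, 6 in reps 5-7 and 3 in the excitatory list. Of its 66 peaks, 46 lay in CDS, 10 in the 3′ UTR and 10 in introns. All 3 excitatory peaks lay in CDS and were in both other lists. A miR-124-3p peak at chrX:7641106-7641119 scored 219, 11 and 10, a second miR-124-3p peak at chrX:7644206-7644225 scored 85, 5 and 4, and a miR-29b-3p peak at chrX:7639900-7639919 scored 64, 4 and 3. The seed shared by miR-29a-3p and miR-29b-3p recurred on Syp, where the pair had 7 and 4 exonic peaks in reps 1-4. The SV2 glycoproteins of the vesicle differed in their counts. Sv2a had 65 reps 1-4 peaks with 1 in an intron, Sv2b had 93 with 59 in introns, and Sv2c had 9. Of the 3, Sv2a alone had peaks in reps 5-7, namely 2, and none had one in the excitatory list.

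Synapsins tether vesicles in the reserve pool. Syn2 had 143 peaks in reps 1-4, 5 in reps 5-7 and 1 in the excitatory list, Syn1 had 45, 1 and 0, and Syn3 had 13, 0 and 0. The excitatory peak of Syn2 was miR-125b-5p in CDS (chr6:115261657-115261678), with scores of 86, 3 and 5 in reps 1-4, reps 5-7 and the excitatory list. That peak was 1 of 6 that the excitatory list held for miR-125b-5p.

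SNARE proteins and their regulators held 411 member peaks in reps 1-4. Of the SNAREs, Snap25 on the plasma membrane had 125 peaks in reps 1-4 and 2 in reps 5-7, Vamp2 on the vesicle had 58 and 1, and Stx1a had 13 and 0. Vamp1 had 1 peak, of miR-541-5p in the 3′ UTR with a score of 4, and was the 1 member with no miR-124-3p peak in reps 1-4. Vamp2 carried the leading CDS peak of miR-127-3p, with a score of 149 (chr11:69089850-69089865), and this had no match in the smaller lists. Snap25 carried a 3′ UTR peak of miR-138-5p with a score of 66.

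Complexins, small proteins that clamp and promote fusion, were found in all 3 lists although their counts were modest. Cplx2 had 53 peaks in reps 1-4, 2 in reps 5-7 and 1 in the excitatory list, and Cplx1 had 21, 3 and 1. The excitatory peak of Cplx2 was miR-9-5p in the 5′ UTR (chr13:54378645-54378658; scores 104, 3 and 5), the only excitatory member peak in a 5′ UTR. For Cplx1 it was miR-124-3p in the 3′ UTR (chr5:108518892-108518917; scores 84, 3 and 3). Of the factors that take SNARE complexes apart, Napb had 22 reps 1-4 peaks and 1 excitatory peak of miR-103-3p in the 3′ UTR (scores 17 and 3), with none in reps 5-7. Nsf had 41, Napa 8 and the SNARE-binding Stxbp5 69 peaks, all in reps 1-4.

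The 13 priming and active zone genes held 1835 member peaks in reps 1-4 (46.9%), 23 in reps 5-7 and 6 in the excitatory list. Bassoon and piccolo, the giant scaffold proteins of the active zone, differed. Bsn had 264 peaks in reps 1-4, 11 in reps 5-7 and 2 in the excitatory list, whereas Pclo had 191, 0 and 0. Exonic peaks numbered 210 on Bsn and 126 on Pclo. Fisher's exact test on all peaks, reps 5-7 against reps 1-4, gave Bsn an adjusted p of 0.126 (odds ratio 2.85) and Pclo an adjusted p of 1, so neither passed the threshold. The Bsn 3′ UTR held the most crowded member site, where 22 peaks of 21 small RNAs were joined by overlap at chr9:108099078-108099129. It was led by miR-124-3p, with a score of 386 in reps 1-4 and 15 in reps 5-7. Not all of its peaks overlapped each other. The miR-124-3p peak (chr9:108099118-108099123) and the let-7a-5p peak (chr9:108099079-108099095) shared no base. Several let-7 RNAs of 1 seed were at that site. A let-7c-5p peak there scored 115 in reps 1-4 and 3 in the excitatory list, let-7f-5p scored 109 in reps 1-4 and 3 in reps 5-7, and let-7a-5p scored 72 in reps 1-4. A CDS peak of miR-124-3p on Bsn (chr9:108107808-108107829) was in all 3 lists, with scores of 153, 3 and 3, and a 3′ UTR peak of miR-153-3p scored 157 in reps 1-4 and 7 in reps 5-7.

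Unc13a, which encodes the vesicle priming factor Munc13-1, had 85 peaks in reps 1-4, 6 in reps 5-7 and 3 in the excitatory list. All 3 excitatory peaks were in both other lists. A miR-29b-3p CDS peak at chr8:71653548-71653566 scored 110, 3 and 4 in reps 1-4, reps 5-7 and the excitatory list. A miR-30b-5p CDS peak at chr8:71654992-71655023 scored 80, 5 and 3, and a miR-30b-5p peak that started at the highest base of the adjoining 110-base intron, chr8:71655133, scored 48, 3 and 3. These 2 were the only miR-30b-5p peaks of the whole excitatory list. In reps 1-4, miR-30c-5p (165) and miR-30e-5p (105) also had peaks at that CDS site, and 12 peaks of 12 small RNAs were joined by overlap there. The paralogues Unc13b and Unc13c had 8 and 9 peaks, all in reps 1-4.

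Rab3a, the vesicle GTPase that binds RIM proteins, had 18 peaks in reps 1-4, 2 in reps 5-7 and 1 in the excitatory list, of which miR-124-3p in CDS (chr8:70755991-70756010) scored 108, 10 and 4. The RIM scaffold genes had long runs of intron peaks. Rims1 had 370, 2 and 0 peaks, of which 342 of the 370 lay in introns, and Rims2 had 276, 1 and 0, with 269 in introns. Erc2, which encodes the RIM-binding protein CAST, had 449 peaks in reps 1-4, 419 of them in introns, and none in the smaller lists. Rimbp2 had 52 and 1 peaks in the forebrain lists. Ppfia2 (83), Erc1 (23) and Ppfia3 (7) were in reps 1-4 only.

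Endocytic genes held 210 peaks in reps 1-4, 1 in reps 5-7 and 0 in the excitatory list. Snap91, a clathrin adaptor, had 96 and 1 peaks in the forebrain lists, while Amph had 79 and the lipid phosphatase gene Synj1 35, both in reps 1-4 only. The vesicular glutamate transporters Slc17a7 and Slc17a6 had 31 and 14 peaks in reps 1-4. Slc17a7 had 1 peak in reps 5-7, of miR-219a-5p in the 3′ UTR. Neither transporter had an excitatory peak. A count of 0 in that list allows a share of up to 0.392% of its peaks.

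In reps 1-4, miR-124-3p, the leading neuronal miRNA, held 1138 of 3913 member peaks (29.1%, 27.7 to 30.5%), against 29.3% of all peaks, and it was on 39 of 40 members. Next came miR-9-5p with 428, miR-26a-5p with 260, miR-128-3p with 195, miR-125b-5p with 170, miR-29a-3p with 144, miR-29b-3p with 119, miR-138-5p with 93, let-7c-5p with 75 and let-7a-5p with 67. In all, 157 small RNAs had a member peak. Among exonic peaks alone, miR-124-3p held 20.4% on members (18.5 to 22.4%) and 21.1% on all genes.

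Of 44 small RNAs with at least 300 exonic peaks in reps 1-4, 7 had an exonic share on members whose interval did not overlap that of all genes, 4 with a larger and 3 with a smaller share. These were picked out after their values were seen, so no test is given. The neuronal miR-138-5p held 62 of 1642 exonic member peaks (3.78%, 2.96 to 4.81%), against 2.11% of all exonic peaks (2.02 to 2.20%), spread over 22 members. Bsn had 10 of these, Syt1 9, Pclo 8 and Snap91 4. On Pclo all 8 lay in CDS, and on Bsn 5 lay in CDS and 5 in the 3′ UTR. Shares were 0.974% on members (0.601 to 1.58%) and 0.341% on all genes (0.307 to 0.378%) for miR-135a-5p, whose 16 exonic peaks were on 7 members. Syt1 held 4 of them and Bsn, Cplx1 and Cplx2 3 each. The other two with a larger share were miR-218-5p and miR-30e-5p, each at 1.40% on members (0.935 to 2.09%), against 0.833% and 0.691% on all genes. Smaller shares were those of miR-9-5p at 8.10% (6.88 to 9.52%) against 10.02%, miR-26a-5p at 3.59% (2.80 to 4.61%) against 5.04%, and miR-9-3p at 0.426% (0.207 to 0.877%) against 1.27%. By seed, the let-7 family held 13.5% of exonic member peaks (11.9 to 15.2%) and 14.1% of all, and the miR-29 family 8.40% (7.16 to 9.85%) and 9.32%. The small RNAs matched to the seed of miR-30c-5p and miR-30e-5p, with miR-30a-5p and miR-384-5p among them, held 3.59% (2.80 to 4.61%) and 2.51% (2.42 to 2.61%). That set leaves out miR-30b-5p and miR-30d-5p, which had 7 and 13 exonic member peaks. Their shares were 0.426% and 0.792% on members, against 0.404% and 0.523% on all genes.

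**Figure D2:**
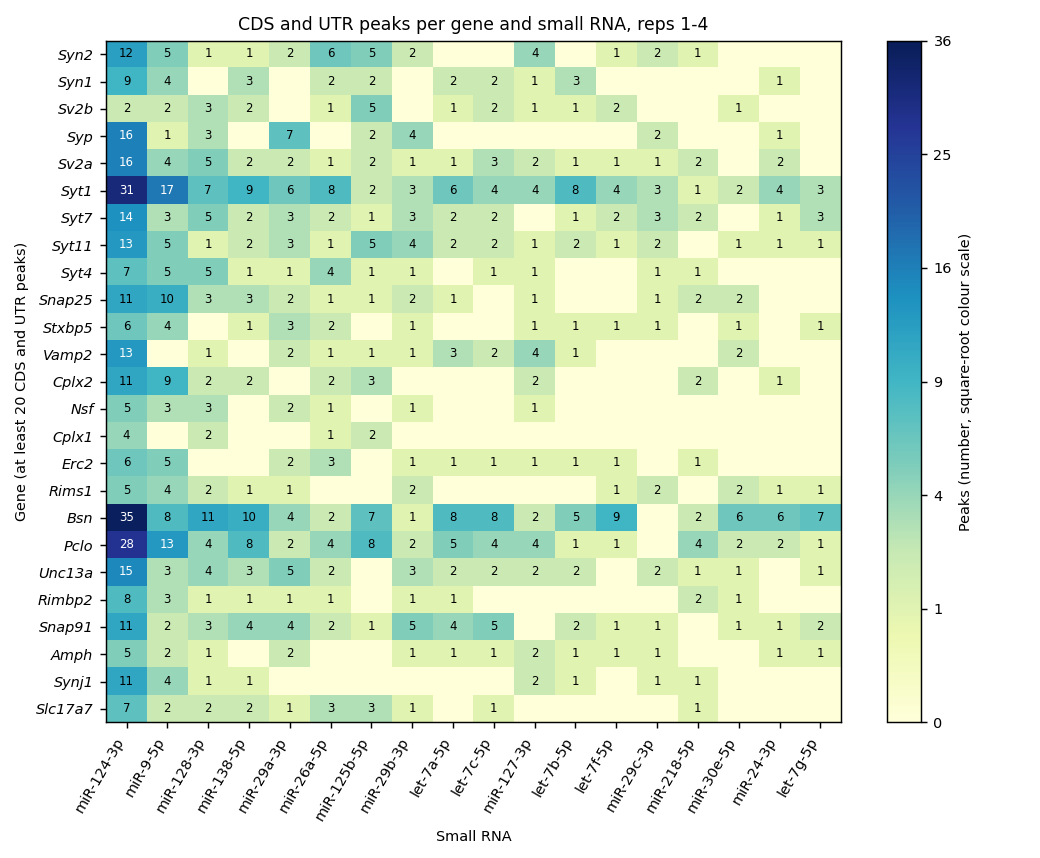
Exonic reps 1-4 peaks for each gene with at least 20 of them (rows, ordered by role) and the 18 small RNAs with the most exonic member peaks (columns), with the number printed in each cell and empty cells at 0. The miR-124-3p column runs from 2 peaks on Sv2b to 35 on Bsn, and miR-138-5p has 10 on Bsn, 9 on Syt1 and 8 on Pclo.

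In reps 5-7, miR-124-3p held 30 of 70 member peaks on 17 members, or 42.9% (31.9 to 54.5%), against 28.2% of all peaks of that list, a value below the interval. Among exonic peaks its share was 42.6% on members (31.0 to 55.1%) and 34.1% on all genes, a value within the interval. The next small RNAs had 4 peaks each (miR-9-5p, miR-29a-3p and miR-29b-3p) and 3 each (miR-135a-5p and miR-26a-5p). The 3 peaks of miR-135a-5p, on Cplx1, Cplx2 and Syt1, were 3 of 8 that the whole list held for it, and each had a counterpart of that small RNA in reps 1-4. In the excitatory list, miR-124-3p held 7 of 16 member peaks, miR-29b-3p and miR-30b-5p 2 each, and let-7c-5p, miR-103-3p, miR-125b-5p, miR-29a-3p and miR-9-5p 1 each.

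Of 10 gene and miRNA pairs that general knowledge names for release genes, listed after a first look at these data, 7 had a reps 1-4 peak, and all 7 had one in the 3′ UTR. The highest scores were 59 for Cplx2 with miR-135a-5p, 48 for Syt1 with miR-137-3p, 29 for Cplx1 with miR-135a-5p, 22 for Nsf with miR-137-3p, 19 for Syt1 with miR-34a-5p, 18 for Snap25 with miR-153-3p and 11 for Cplx1 with miR-137-3p. Of these, 3 recurred in reps 5-7 (Syt1 with miR-137-3p and both complexins with miR-135a-5p) and 0 in the excitatory list. The pairs Sv2a with miR-485-5p, Stx1a with miR-34a-5p and Bsn with miR-27b-3p had no peak in any list. Some of these miRNAs had peaks on many members. In reps 1-4, miR-137-3p had a peak on 18 members, miR-153-3p on 17 and miR-135a-5p on 12. By contrast, miR-34a-5p had one on 6 and miR-27b-3p on 4. Pairs outside the list were not compared, so 7 of 10 does not show that listed pairs had peaks more often.

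By region, the reps 1-4 peaks of the members lay 22.1% in CDS, 18.5% in 3′ UTRs, 1.43% in 5′ UTRs and 58.0% in introns (56.5 to 59.6%). Over all peaks the shares were 22.6%, 18.7%, 0.956% and 47.6%. Intron peaks were unevenly spread over members. Syt1 (582), Erc2 (419), Rims1 (342) and Rims2 (269) held 1612 of the 2271 intron peaks (71.0%), and without these 4, chosen for their intron counts, the intron share of the remaining members was 32.4%. Scaled by gene length, the 37 members with an intron peak had a median of 16.4 intron peaks per 100 kb, against 6.78 over 5119 genes. Intron peaks were the majority on 13 members, and Vamp1, Cplx1 and Slc17a6 had none. In reps 5-7, 32 of 70 member peaks lay in CDS, 27 in 3′ UTRs, 2 in 5′ UTRs and 9 in introns (12.9%, 6.91 to 22.7%), against 6.04% in introns for the whole list. In the excitatory list, 10 of 16 lay in CDS, 4 in 3′ UTRs, 1 in a 5′ UTR and 1 in an intron.

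Part of the intron annotation rests on a single base. Of the 2271 intron peaks of members in reps 1-4, 81 (3.57%) held only 1 base of the intron, always the one with the highest coordinate, and 66 of the 81 were wider than that base and ran on past the intron. None held only the base with the lowest coordinate. Over all genes, 4008 of 117113 intron peaks held only the highest base and 1 only the lowest. Whether deposited starts count from 0 or 1 is not stated, so a printed start can be off by 1 base. The 66 wider peaks would lie outside the intron if their starts were printed 1 base too low, which was not tested. For 61 of the 81, a peak of the same small RNA lay within 10 bases of the other end of the intron. Over all genes this was so for 2686 of the 4008. Such pairs were seen on Syp, where miR-29a-3p scored 47 and 77 at the ends of a 1174-base intron, and on Slc17a7, where miR-22-3p scored 48 at both ends of a 101-base intron. In the smaller lists, 2 of 9 intron peaks of members in reps 5-7 and the 1 of the excitatory list were of this kind.

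Among exonic peaks, the split between CDS and 3′ UTR was the same on members as on all genes, with 44.0% in 3′ UTRs (41.6 to 46.4%) against 44.2%. Single members lay far apart. The 3′ UTR held 42 of 52 exonic peaks of Cplx2 (80.8%, 68.1 to 89.2%), 17 of 18 of Napb (94.4%, 74.2 to 99.01%), 26 of 40 of Syt4 (65.0%, 49.5 to 77.9%), 126 of 210 of Bsn (60%, 53.3 to 66.4%) and 41 of 69 of Snap25 (59.4%, 47.6 to 70.2%). It held 9 of 68 of Snap91 (13.2%, 7.12 to 23.3%), 5 of 35 of Syn1 (14.3%, 6.26 to 29.4%), 22 of 126 of Pclo (17.5%, 11.8 to 25.02%), 10 of 56 of Syp (17.9%, 10.00 to 29.8%) and 13 of 71 of Unc13a (18.3%, 11.0 to 28.8%). Bassoon and piccolo thus lay on opposite sides of the value of all genes, with intervals that did not overlap. The lengths of their CDS and 3′ UTRs were not used here, so the shares do not account for them.

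**Figure D3:**
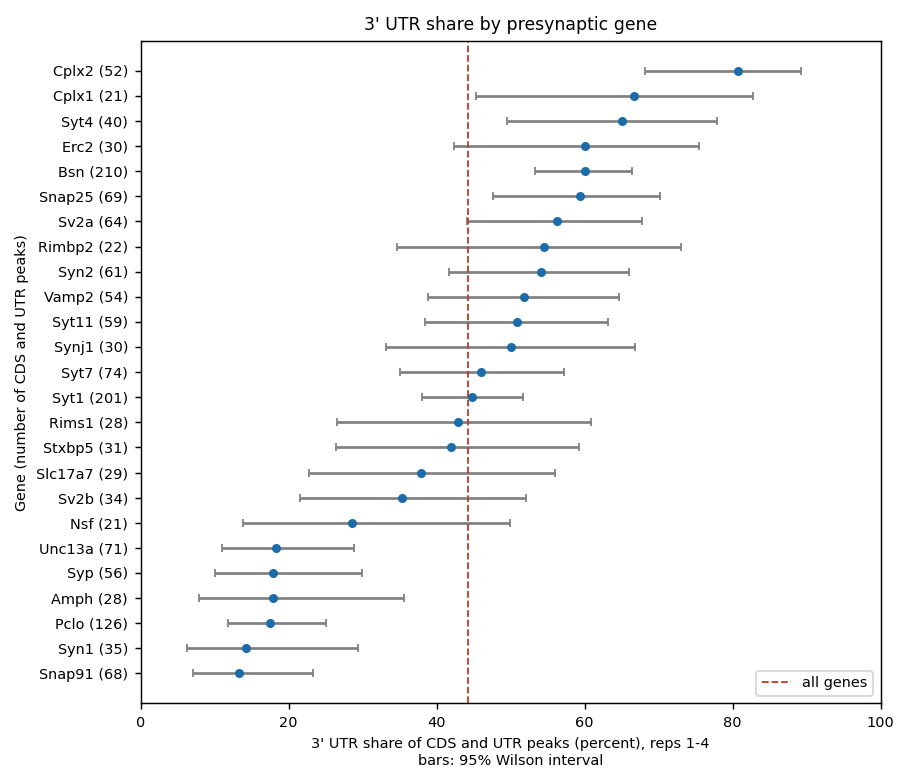
Share of exonic reps 1-4 peaks annotated to the 3′ UTR (percent) for each gene with at least 20 exonic peaks, the number in brackets, with 95% Wilson intervals; the dashed line is the value over all genes, 44.2%. Cplx2 is highest at 80.8% and Snap91 lowest at 13.2%, and the intervals of 6 genes at the lower end stay below the line.

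Peaks at member sites mostly stood alone. Overlapping reps 1-4 peaks merged into 2902 member sites, of which 84.6% held a single small RNA, against 85.3% of 183883 sites over all genes. Sites with at least 10 small RNAs made up 19 of 2902 on members (0.655%) and 0.308% of all sites. Sites at either end of an intron were counted separately, and on Syt1, Unc13a and Sv2b both ends of an intron were among the 19. Beside the Bsn and Unc13a sites above, the 19 included a Syt1 3′ UTR site of 18 small RNAs (chr10:108500456-108500540) and a neighbouring one led by miR-137-3p with 12 (chr10:108500312-108500451).

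The smaller lists largely repeated interactions of reps 1-4. Of the 70 member peaks in reps 5-7, 63 (90.0%, 80.8 to 95.1%) shared at least 1 base with a peak that reps 1-4 held for that small RNA, against 87.5% for all peaks of reps 5-7. Of the 16 excitatory member peaks all 16 did, against 93.1% for all peaks of that list. From the other side these were 1.61% and 0.409% of the reps 1-4 member peaks. The 14 interactions present in all 3 lists lay on 10 members, namely Syp, Unc13a, Bsn, Syt7, Syt1, Syt11, Rab3a, Syn2, Cplx1 and Cplx2. They were 14 of the 16 excitatory and 20% of the reps 5-7 member peaks, and the 2 others were Bsn with let-7c-5p and Napb with miR-103-3p. Of the 14, 7 carried miR-124-3p and 10 lay in CDS. The CDS and intron peaks of miR-30b-5p on Unc13a, at either end of the same intron, were counted as separate interactions. Whether they are a single interaction was not tested.

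**Figure D4:**
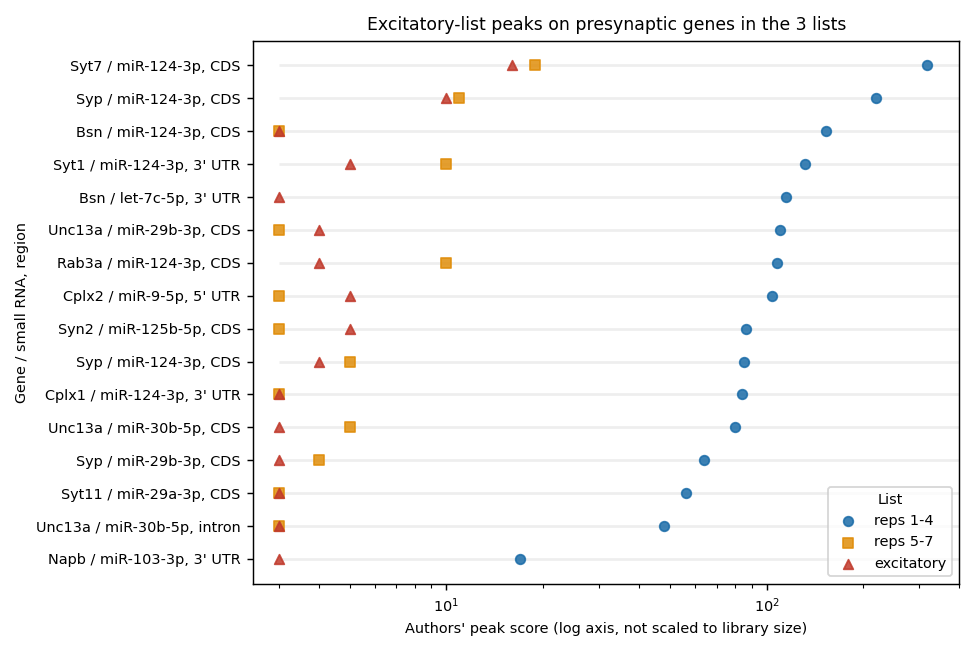
Authors' peak score (log axis) in the 3 lists for the 16 excitatory peaks on presynaptic genes, each named by gene, small RNA and region, ordered by the reps 1-4 score; a missing square means no overlapping reps 5-7 peak. Scores run from 17 to 318 in reps 1-4, from 3 to 19 in reps 5-7 and from 3 to 16 in the excitatory list, and Syt7 with miR-124-3p is highest in all 3.

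Recovery was larger at higher reps 1-4 scores. Of exonic member peaks scoring 3 to 9, 3 of 1235 (0.243%) were also in reps 5-7, against 16 of 310 (5.16%) at 10 to 29, 24 of 76 (31.6%) at 30 to 99 and 13 of 21 (61.9%, 40.9 to 79.2%) at 100 or more. Over all genes outside rRNA the highest class gave 71.8%. For the excitatory list the 4 classes gave 0 of 1235, 1 of 310, 6 of 76 (7.89%) and 8 of 21 (38.1%, 20.8 to 59.1%), against 32.3% over all genes in the highest. The intervals of members and all genes overlapped in every class. High-scoring exonic peaks that recurred in neither smaller list, even within 20 bases, were Unc13a with miR-30c-5p (165), Syt1 with miR-124-3p (150), Vamp2 with miR-127-3p (149), Syt1 with miR-132-3p (110), Syt1 with miR-128-3p (108) and Pclo with miR-218-5p (94). The Bsn let-7c-5p peak (115) recurred in the excitatory list but not in reps 5-7.

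**Figure D5:**
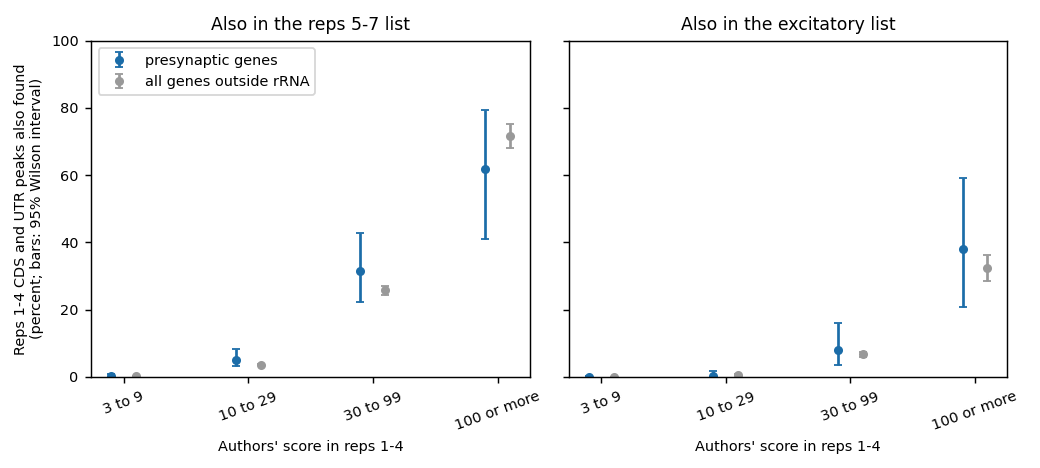
Share of exonic reps 1-4 peaks (percent, 95% Wilson intervals) that were also in the reps 5-7 list (left) and the excitatory list (right) with the same small RNA, by the authors' score in reps 1-4, for the presynaptic genes and for all genes outside rRNA. For the presynaptic genes the share goes from 0.243% to 61.9% on the left and from 0 to 38.1% on the right.

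Per-gene tests asked whether a gene's share of the peaks differed between lists (two-sided Fisher's exact test, adjusted by Benjamini-Hochberg over all genes with at least 10 peaks in both lists together). They compare the lists, not the conditions, and they treat peaks as independent, which peaks that overlap or share a gene are not. For reps 5-7 against reps 1-4, 1 of 34 members tested passed the threshold of 0.05, where 1.33% of 4132 genes did, 0.653% with a larger share in reps 5-7 and 0.678% with a smaller one. That member was Syp, with 6 peaks (0.166%) in reps 5-7 and 66 (0.0268%) in reps 1-4, an odds ratio of 6.21 and an adjusted p of 0.0490 by Fisher's exact test. Of its 6 reps 5-7 peaks, those of miR-29a-3p and miR-29b-3p shared bases. A CDS peak and an intron peak of miR-124-3p lay at either end of the same intron. The call for Syp was at the threshold and did not hold in CDS and UTR peaks alone. There Syp had 5 and 56 peaks and an adjusted p of 0.884 by Fisher's exact test. At an unadjusted p below 0.05 there were 7 members of 268 genes. Beside Syp these were Bsn, Cplx1, Rab3a, Syt11 and Unc13a, each with the larger share in reps 5-7, and Erc2 with 0 against 449 peaks (adjusted p 0.126 by Fisher's exact test). Among CDS and UTR peaks 0 of 30 members and 0.00% of 3127 genes passed, and at an unadjusted p below 0.05 it was 6 members and 128 genes. Syt1 had the lowest adjusted p among these members at 0.340 (13 against 201 peaks, odds ratio 2.83, Fisher's exact test).

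For the excitatory list against reps 1-4, 0 of 34 members passed, where 0.268% of 4103 genes did (Fisher's exact test). Among CDS and UTR peaks 0 of 30 members and 0.129% of 3099 genes passed, with 1 member and 58 genes at an unadjusted p below 0.05. On all peaks that threshold was met by 2 members of 123 genes. These were Syp, with 3 against 66 peaks (0.392% against 0.0268%, odds ratio 14.7, adjusted p 0.261), and Unc13a, with 3 against 85 (0.392% against 0.0345%, odds ratio 11.4, adjusted p 0.355, both by Fisher's exact test). For the excitatory list against reps 5-7, Bsn (2 against 11 peaks) and Syt1 (1 against 15) were the 2 members with enough peaks. Neither passed, where 21.9% of 32 genes did (9.38% with a larger and 12.5% with a smaller share in the excitatory list), and none had an unadjusted p below 0.05 by Fisher's exact test. In simulated lists of these sizes, 10-fold rises were called for 3.00% of raised genes for the excitatory list against reps 1-4. The value was 27.0% for reps 5-7 against reps 1-4 and 80% of 10 genes for the excitatory list against reps 5-7. Raised genes were drawn from all genes with at least 10 peaks in the larger list, so the values are not those of the members. Falls were not simulated.

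Other presynaptic genes, 54 that are no members, had peaks on 50 of 54 in reps 1-4, on 15 in reps 5-7 and on 4 in the excitatory list, with a median of 24.5 peaks in reps 1-4. The 4 with an excitatory peak were Cltc, the clathrin heavy chain (2), and Rab3c, Syngr3 and Scamp5 (1 each).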

How the data were processed

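Peaks of chimeric reads were called by the authors on the pooled libraries of each group (mm10, miRBase names, at least 3 reads and 2 libraries), per the file headers of the calling summaries; mm10 is also named in the submitters' processing notes. Aligner and peak caller: not given in the sources used here. Scores, as deposited, are the authors' whole numbers, 1 per peak, with the score's definition unstated. Deposited annotation gave region and gene symbol, and peak and annotation files listed the same peaks. From these, peaks were counted per list, gene, region and small RNA, with Wilson 95% intervals, using Python 3.11.15, pandas 2.3.3 and SciPy 1.17.1. Genes with at least 10 peaks in both lists together were compared by Fisher's exact test with Benjamini-Hochberg adjustment, which was tested on simulated data. Positions are the deposited ones, written from 1. All 40 members were accounted for; values were given for those with a peak in a smaller list or past a threshold. Members and lists were chosen with earlier results of these data known. Per-gene tests of presynaptic genes outside the members are not reported here.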

Additional observations from a re-analysis of the deposited data

How the results depend on the processing

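Results were recomputed under the alternatives set at the start and 3 settings added after seeing the data. The added settings were a match within 20 bases, the intron class without peaks that held only 1 intron base, and shares without Syt1, Erc2, Rims1 and Rims2. Of the main values, 60 recomputed ones stayed within their counting interval or 1.5 times their count and 36 moved further. With scores summed, the members' share was 1.31% in reps 1-4, 1.07% in reps 5-7 and 1.00% in the excitatory list; reps 1-4 member shares became 34.4% CDS, 26.0% 3′ UTR, 2.13% 5′ UTR and 37.4% intron; and miR-124-3p held 35.0% in reps 1-4 and 56.2% in reps 5-7. With peaks at or above the median score, reps 1-4 shares were 26.8% CDS, 22.2% 3′ UTR and 49.3% intron, the members' share of reps 5-7 was 1.48%, its 5′ UTR share and the excitatory intron share were 0, and 7 members kept an excitatory peak. Without the 4 long genes, the members' share was 0.827% in reps 1-4 and 1.44% in reps 5-7, reps 1-4 shares were 36.3% CDS, 29.5% 3′ UTR and 32.4% intron, and miR-124-3p held 26.3%. With CDS and UTR peaks alone, miR-124-3p held 20.4% in reps 1-4 and the members' share of reps 5-7 was 2.56%. With peaks that held only 1 intron base not counted as intron, the intron share was 56.0% in reps 1-4 and 0 in the excitatory list. At least 2 peaks per gene left 13 members in reps 5-7 and 3 in the excitatory list. A reciprocal overlap of 50% left 45.7% of reps 5-7 and 43.8% of excitatory member peaks recurring, any small RNA gave 100% in reps 5-7, and a match within 20 bases gave 94.3%. Members passing the test of reps 5-7 against reps 1-4 numbered 0 with CDS and UTR peaks, with the median score, with reps 1-4 cut to as many top-scoring peaks as reps 5-7 and with at least 5 peaks per gene, and 3 (Syp, Bsn and Syt11) with merged sites; adjusted p for Syp by Fisher's exact test ran from 0.00832 to 1. The order of the members' share over the lists turned with scores summed, and with the median score reps 5-7 was below reps 1-4 (1.59%). Share differences were followed over all settings for Syp, Unc13a, Bsn, Syt1 and Erc2 only, so turns of other members are not counted here. Among these genes, differences that were not called turned in sign in 4 cases. With the median score these were Syt1 for reps 5-7 minus reps 1-4 (0.0973 to -0.0901 points) and Bsn for excitatory minus reps 1-4 (0.154 to -0.133). With reps 1-4 cut in size it was Unc13a for reps 5-7 minus reps 1-4 (0.132 to -0.0554), and with CDS and UTR peaks Bsn for excitatory minus reps 5-7 (-0.0435 to 0.00793). The cause of these differences was not tested. No paired analysis was possible because peaks were called on pooled libraries and the lists carry no replicate, so leaving out a replicate was not possible either. Seed matches at peaks were not run, as no genome was used here.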
